A study of Mus musculus with 12 samples.

Results

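Neutrophil primary granule genes were followed in mouse bone marrow progenitors with and without Lamtor2, as a set of 10 named genes: Elane, Mpo, Prtn3, Ctsg, Prss57, Ms4a3, Cst7, Hp, Anxa3 and Rab44. They were picked by gene symbol, each of the 10 had 1 probe set that carried that symbol alone, and they were tested among 19937 genes. The 12 Affymetrix arrays formed 4 groups of 3. Mice of the KO groups were C57BL/6J with Mx-Cre and floxed Lamtor2 alleles (Lamtor2f/f), and mice of the WT groups were C57BL/6J with Mx-Cre and wild-type Lamtor2, with 3 mice of each genotype. All of them, WT included, were injected with pIpC, an interferon inducer that switches on the Mx promoter, and cells were sorted at day 14. The sorted populations were LSK (lineage-negative, Sca1+ and c-kit+), which holds the stem cells and multipotent progenitors, and GMP (lineage-negative, c-kit+, CD34+ and FcγR+ but Sca1-), the granulocyte and macrophage progenitors, which gave the groups LSK_KO and LSK_WT, and GMP_KO and GMP_WT. Ages, and which LSK and GMP samples shared a mouse, are not given in the labels. The strain field writes Mx1-Cre wt/wt for both genotypes, and Mx-Cre is known to act in many cell types that respond to interferon. Deletion outside the sorted cells was not measured here.

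Primary (azurophil) granules are lysosome-related organelles of neutrophils, filled with microbicidal proteins that are made during a short window of early granulocyte development. Elane, Prtn3, Ctsg and Prss57 encode the granule serine proteases and Mpo the granule peroxidase, and their transcripts mark the promyelocyte stage and its GMP precursors. The other 5 genes are transcribed in the same early window or encode proteins of other compartments: Hp (haptoglobin) is stored in specific granules, Ms4a3 and Anxa3 encode membrane and membrane-binding proteins, Cst7 (cystatin F) is an inhibitor of endolysosomal cathepsins, and Rab44 is a large Rab GTPase, so the set is wider than the granule enzymes alone. Lamtor2 encodes a subunit of Ragulator, a complex on late endosomes and lysosomes.

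For 6 of the 10 genes a RefSeq promoter of assembly GRCm38.p6 was at hand (Elane, Mpo, Prtn3, Ctsg, Ms4a3 and Cst7), and the sequences of Elane, Prtn3, Mpo and Ctsg are shown because these 4 genes, the classical granule enzymes, shared motif letters in the 250 bases before the start. Both strands were searched for GAGGAA (PU.1), for TAACNG or CAACNG (MYB), for TGNGGT (RUNX) and for TTNCNNAA (C/EBP), and the matches of any of them are in capitals. No letters of these matches overlapped in the 4 promoters. Each sequence runs 5′ to 3′ towards the start, the nearest 100 bases for Elane and Prtn3 and 250 bases for Mpo and Ctsg.
Elane (chr10:79886212-79886311, + strand): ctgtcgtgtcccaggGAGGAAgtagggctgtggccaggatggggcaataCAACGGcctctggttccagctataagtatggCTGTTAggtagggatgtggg
Prtn3 (chr10:79879567-79879666, + strand): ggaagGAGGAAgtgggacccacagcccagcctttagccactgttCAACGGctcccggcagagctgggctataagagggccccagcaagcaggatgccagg
Mpo (chr11:87793534-87793783, + strand): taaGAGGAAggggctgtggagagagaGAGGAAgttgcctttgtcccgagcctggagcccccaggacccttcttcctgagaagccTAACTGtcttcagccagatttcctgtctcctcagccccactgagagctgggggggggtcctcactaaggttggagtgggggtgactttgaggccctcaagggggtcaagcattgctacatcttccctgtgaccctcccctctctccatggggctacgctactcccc
Ctsg (chr14:56102575-56102824, - strand): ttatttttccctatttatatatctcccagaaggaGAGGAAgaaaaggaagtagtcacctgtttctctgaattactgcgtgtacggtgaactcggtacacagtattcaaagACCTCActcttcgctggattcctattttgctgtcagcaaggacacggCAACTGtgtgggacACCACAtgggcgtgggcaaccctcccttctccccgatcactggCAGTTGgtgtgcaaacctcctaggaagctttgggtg
The PU.1 letters stood 85 to 80 bases before the start in Elane and 95 to 90 bases before it in Prtn3, each followed by the same MYB letters, CAACGG, at 51 to 46 bases in Elane and 56 to 51 bases in Prtn3. Elane and Prtn3 are direct neighbours on chromosome 10 in RefSeq, with 0 genes between them. The PU.1 letters occurred in 4 of the 6 promoters, against 23.3% of 32851 mouse promoters of the same length, and the MYB letters likewise in 4 of the 6, against 43.1%. Both occurred together in 4 of the 6 and in 9.7% of all promoters, a combination that was looked at after the matches were seen. The RUNX letters were in 2 of the 6 (Ctsg and Cst7), against 40.1%, and the C/EBP letters in 2 of the 6 (Ms4a3 and Cst7), against 36.8%. These matches describe letters in a window only, and binding was not measured.

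The values are RMA values taken as log2, with array medians of 5.96 to 6.18. Lamtor2 read 4.95 to 5.77 in the KO arrays, against 10.31 to 10.82 in the WT arrays, so every array matched its genotype label. The range of the KO arrays shows what this probe set reads when its gene is deleted. Other probe sets can read lower, such as that of Ly6g with a mean of 3.93 in GMP_KO, so the range is only a rough guide. Arrays correlated at 0.993 to 0.996 with the others of their group, apart from GMP_KO, where replicate 1 averaged 0.979 and had an array weight of 0.19. A called gene below is one with a limma adjusted p under 0.05 in a fit over all genes, and the SE is that of the fit. Apart from that guide, levels of different genes are not compared, since each probe set has its own response.

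The genes of the set were more alike in LSK and GMP cells when Lamtor2 was deleted. In LSK cells all 10 had a higher mean in KO than in WT, and 5 rose past the test: Cst7, Ctsg, Rab44, Ms4a3 and Anxa3. In GMP cells 8 of 10 had a lower mean in KO than in WT, and 2 fell past the test: Prss57 and Prtn3. Of all genes, 2.49% were called higher in KO LSK cells, 5.78% were called higher in KO GMP cells and 10.3% were called lower there. The share of all genes called lower in KO LSK cells is not given here. Counts of genes that fell in KO LSK cells therefore have no background beside them. The median difference over the 10 genes was 1.22 in LSK, beside -0.013 over all genes, and -0.42 in GMP, beside 0.015 over all genes. The LSK median was 0.75 without LSK_WT replicate 3 and 1.71 without LSK_WT replicate 1. In sorted bulk RNA, more cells of a type and more RNA per cell cannot be told apart.

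**Figure D1:**
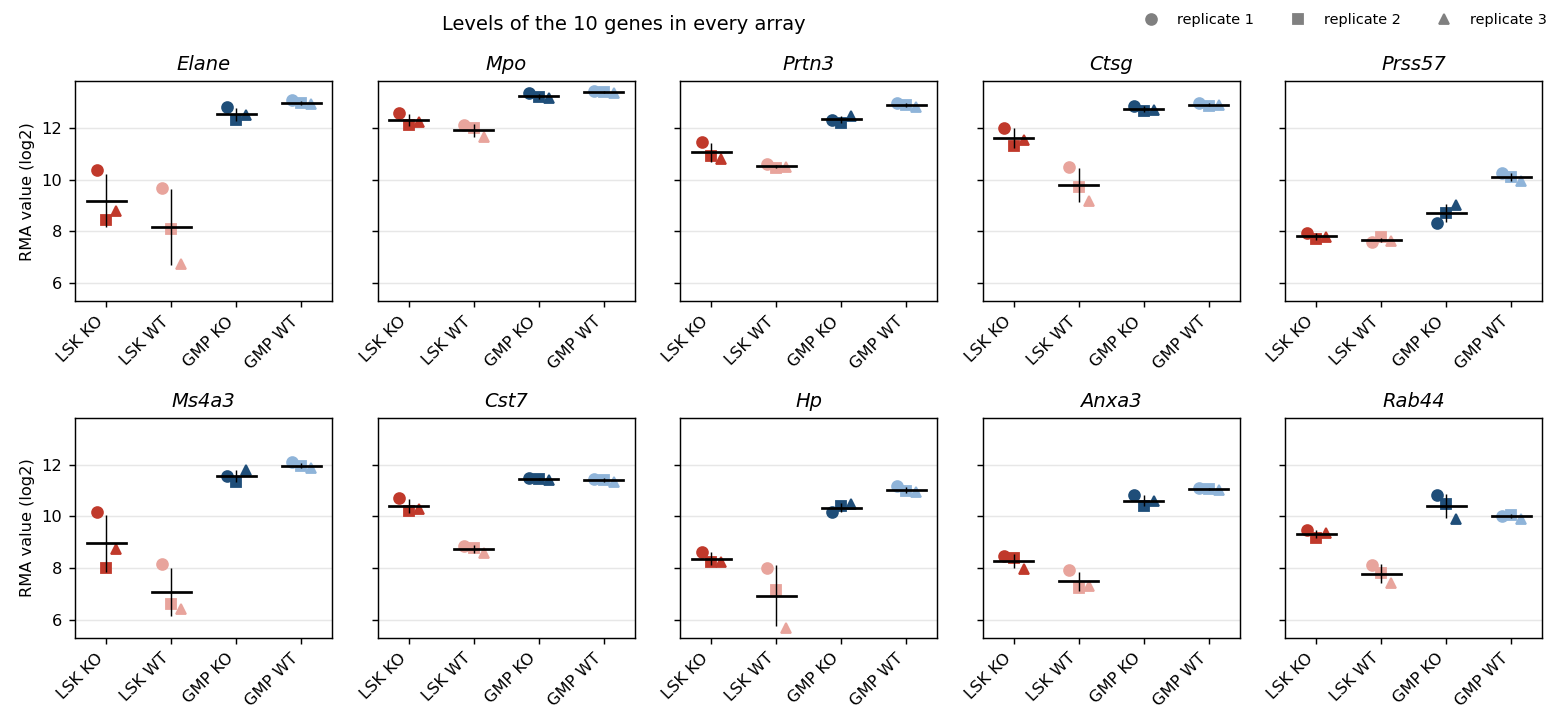
RMA value (log2) of each of the 10 genes in all 12 arrays, 1 panel per gene, with KO left of WT in LSK and then in GMP; circle, square and triangle are replicates 1, 2 and 3, the black line is the mean and the vertical line the SD of 3 arrays. Every gene is higher in GMP than in LSK within a genotype, and the LSK arrays of Elane, Ms4a3 and Hp spread far more than the GMP WT arrays.

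Among the serine proteases, Ctsg, which encodes cathepsin G, was the one called in KO LSK cells in the main fit. It read 12.01, 11.29 and 11.52 in the KO LSK arrays, against 10.48, 9.72 and 9.19 in the WT LSK arrays. Every KO array lay above every WT array, and the difference was 1.81 (SE 0.25, 3.51-fold; limma adjusted p = 0.00104). In GMP cells it read 12.85, 12.65 and 12.69 in KO, against 12.94, 12.85 and 12.87 in WT. The highest KO array lay just below the lowest WT array, and the difference of -0.16 (SE 0.25, 95% interval -0.70 to 0.38; limma adjusted p = 0.749) was not called.

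Prtn3, which encodes proteinase 3, fell in KO GMP cells and was not called in LSK cells in the main fit. In LSK cells it read 11.47, 10.90 and 10.79 in KO, against 10.59, 10.45 and 10.49 in WT. These groups did not overlap, but the difference of 0.54 (SE 0.15, 95% interval 0.22 to 0.86, limma adjusted p = 0.0569) missed the threshold. Without LSK_KO replicate 3 it was 0.67 with a limma adjusted p of 0.0367. It also passed with the dimmest 30% of genes left out (limma adjusted p = 0.0483). With trend and robust options the limma adjusted p was 0.0388, and with array weights it was 0.0192. In GMP cells it read 12.32, 12.20 and 12.46 in KO, against 12.94, 12.90 and 12.81 in WT. All KO arrays were lower, and Prtn3 fell by 0.56 (SE 0.15, 1.47-fold; limma adjusted p = 0.0196). That call was lost without GMP_KO replicate 2, GMP_WT replicate 1 or GMP_WT replicate 2, with limma adjusted p-values of 0.0547, 0.0681 and 0.0694.

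Prss57, which encodes a further neutrophil serine protease that cleaves after arginine, had the largest decrease of the 10 genes in GMP cells. It read 8.33, 8.73 and 9.02 in the KO GMP arrays, against 10.26, 10.11 and 9.94 in the WT GMP arrays. The groups were separated by a wide gap, and Prss57 fell by 1.41 (SE 0.15, 2.66-fold; limma adjusted p = 5.10e-05), a call kept without any 1 of the 6 GMP arrays. In LSK cells it read 7.95, 7.69 and 7.78 in KO, against 7.60, 7.78 and 7.64 in WT. Here the arrays overlapped, and the difference was 0.14 (SE 0.15, 95% interval -0.19 to 0.46; limma adjusted p = 0.776). Prss57 lies on chromosome 10 as well, with 7 genes between it and Prtn3, 4 of them protein coding.

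Elane, which encodes neutrophil elastase, passed the test in neither population. In LSK cells it read 10.36, 8.43 and 8.77 in KO, against 9.67, 8.09 and 6.74 in WT. The WT arrays alone spanned 2.93 and the groups overlapped, so the difference of 1.02 (SE 0.58, 95% interval -0.23 to 2.28; limma adjusted p = 0.445) was within the spread between arrays. In GMP cells it read 12.79, 12.29 and 12.48 in KO, against 13.07, 12.95 and 12.91 in WT. The KO arrays were all lower, by 0.45 on average (log2 difference -0.45, SE 0.58, 95% interval -1.71 to 0.80; limma adjusted p = 0.68). The SE comes from all 4 groups and carries the wide LSK spread of Elane, whereas the SD within the GMP groups was 0.25 in KO and 0.08 in WT. A fit of the GMP groups alone, without the LSK spread, did not call Elane either.

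Mpo encodes myeloperoxidase, the haem enzyme that makes hypochlorous acid. In LSK cells it read 12.57, 12.11 and 12.22 in KO, against 12.11, 11.98 and 11.63 in WT. The groups overlapped slightly, and the difference was 0.39 (SE 0.14, 95% interval 0.10 to 0.69; limma adjusted p = 0.146). In GMP cells it read 13.33, 13.20 and 13.14 in KO, against 13.42, 13.37 and 13.36 in WT, with KO lower in every array and a difference of -0.16 (SE 0.14; limma adjusted p = 0.508). The highest value of any probe set on an array lay between 14.01 and 14.2, so Mpo in GMP was near the top of the scale.

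Cst7, the cathepsin inhibitor, had the smallest p of the set in LSK cells. It read 10.71, 10.22 and 10.27 in KO LSK arrays, against 8.86, 8.76 and 8.57 in WT LSK arrays. The lowest KO value stood well above the highest WT value, and the difference was 1.67 (SE 0.13, 3.18-fold; limma adjusted p = 1.35e-05). In GMP cells the values were 11.47, 11.46 and 11.41 in KO, against 11.46, 11.42 and 11.32 in WT. These overlapped almost fully, with a difference of 0.05 (SE 0.13, 95% interval -0.23 to 0.32; limma adjusted p = 0.855).

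Rab44, the Rab GTPase, also rose in KO LSK cells. Its values were 9.46, 9.15 and 9.34 in KO LSK arrays, against 8.13, 7.82 and 7.43 in WT LSK arrays. The groups were well apart, with a difference of 1.53 (SE 0.21, 2.88-fold; limma adjusted p = 9.29e-04). In GMP cells Rab44 read 10.81, 10.46 and 9.89 in KO, against 10.02, 10.07 and 9.91 in WT. Replicate 3 of GMP_KO lay below all WT arrays while the other KO arrays lay above them, and the difference was 0.39 (SE 0.21, 95% interval -0.06 to 0.83; limma adjusted p = 0.25); without that array it was 0.63, with a limma adjusted p of 0.0284.

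Ms4a3, a tetraspanning membrane protein used as a marker of granulocyte and monocyte progenitors, had the largest LSK difference of the set and one of its widest spreads. It read 10.17, 8.01 and 8.72 in KO LSK arrays, against 8.16, 6.63 and 6.44 in WT LSK arrays. The lowest KO array lay below the highest WT array, yet the difference of 1.89 (SE 0.48, 3.7-fold; limma adjusted p = 0.0398) passed. The call was lost without LSK_KO replicate 1 (1.28, adjusted p = 0.121), LSK_KO replicate 3 (2.01, adjusted p = 0.0915), LSK_WT replicate 2 (1.66, adjusted p = 0.171) or LSK_WT replicate 3 (1.57, adjusted p = 0.153), with trend and robust options (adjusted p = 0.112) and in a fit of the LSK groups alone (adjusted p = 0.0737), all by limma. In GMP cells Ms4a3 read 11.54, 11.33 and 11.79 in KO, against 12.09, 11.93 and 11.88 in WT. KO was lower in every array, with a difference of -0.41 (SE 0.48; limma adjusted p = 0.645).

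Anxa3, a calcium-dependent membrane-binding annexin, rose in KO LSK cells as well. Its values were 8.48, 8.38 and 7.98 in KO LSK arrays, against 7.92, 7.25 and 7.31 in WT LSK arrays. The groups did not overlap, and the difference was 0.79 (SE 0.18, 1.73-fold; limma adjusted p = 0.0238). The limma adjusted p was 0.095 without LSK_KO replicate 1, 0.0913 without LSK_KO replicate 2, 0.119 without LSK_WT replicate 2 and 0.1 without LSK_WT replicate 3. In GMP cells Anxa3 read 10.84, 10.39 and 10.61 in KO, against 11.10, 11.04 and 11.00 in WT, lower in every KO array, with a difference of -0.44 (SE 0.18; limma adjusted p = 0.126).

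Hp, which encodes the haemoglobin-binding protein haptoglobin, read 8.64, 8.23 and 8.22 in KO LSK arrays, against 8.01, 7.14 and 5.69 in WT LSK arrays. Every KO array was higher, and the lowest WT array fell within the range that Lamtor2 had in KO arrays. The difference was 1.42 (SE 0.39, 95% interval 0.57 to 2.27; limma adjusted p = 0.0611), not called. Without LSK_WT replicate 1 it was 1.95, with a limma adjusted p of 0.0047, and without LSK_WT replicate 3 it was 0.79, with a limma adjusted p of 0.0838. In GMP cells Hp read 10.15, 10.40 and 10.47 in KO, against 11.16, 10.97 and 10.93 in WT. These arrays were clearly apart, with a difference of -0.68 (SE 0.39, 95% interval -1.53 to 0.17; limma adjusted p = 0.292); a fit of the GMP groups alone, without the LSK spread, gave a limma adjusted p of 0.0137.

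**Figure D2:**
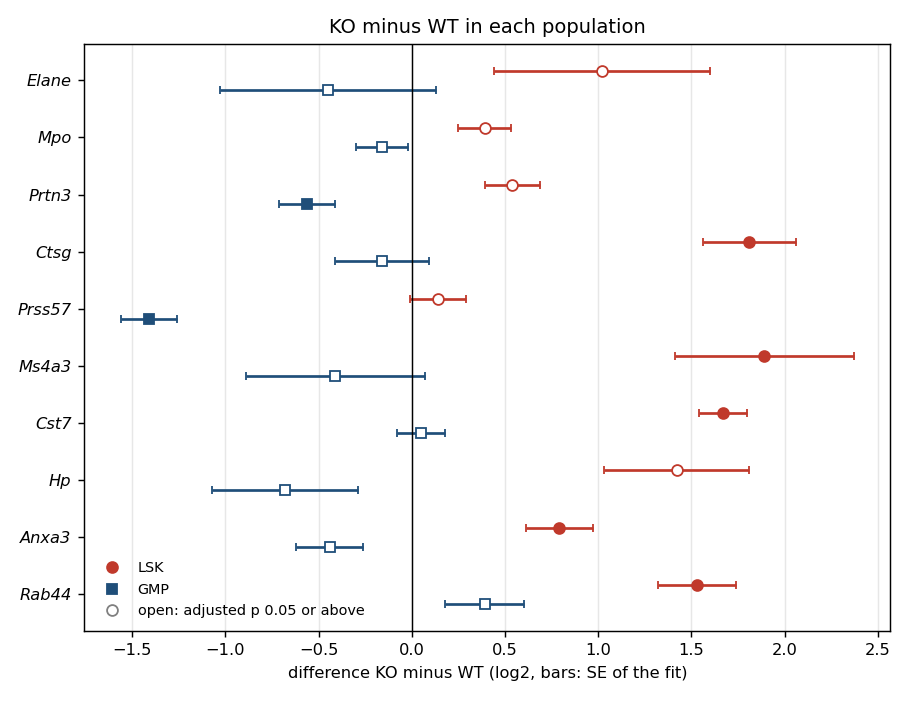
Difference KO minus WT (log2) of the 10 genes in LSK (red circles) and GMP (blue squares), with the SE of the fit as bars; filled symbols passed the test. All 10 red circles lie above 0, from 0.14 to 1.89, and the blue squares lie between -1.41 and 0.39.

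Separation of the arrays was also counted without a model. In LSK cells all 3 KO arrays lay above all 3 WT arrays for 6 of the 10 genes, against 12.4% of all genes. In GMP cells all 3 KO arrays lay below all 3 WT arrays for 8 of the 10 genes, against 17.6% of all genes. Cst7 and Rab44 were the exceptions in GMP. The separated genes were not the same as the called ones: in LSK, Prtn3 and Hp were separated and not called by limma, and Ms4a3 was called and overlapped, and in GMP 2 of the 8 separated genes were called.

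Whether deletion of Lamtor2 acted differently in the 2 populations was tested as the KO effect in LSK minus the KO effect in GMP. The main fit took the 12 arrays as independent, so its SE and p-values leave out any mouse shared by LSK and GMP arrays. The value was positive for all 10 genes, with a median of 1.51, and was called for 7 of 10, against 5.34% of all genes called positive. It was 1.62 for Cst7 (SE 0.18; limma adjusted p = 6.25e-04), where the KO effect in GMP was 0.05, and 1.55 for Prss57 (SE 0.21; limma adjusted p = 0.00172), where the KO effect in LSK was 0.14. Ctsg (1.97, adjusted p = 0.00606), Prtn3 (1.10, adjusted p = 0.00779) and Anxa3 (1.22, adjusted p = 0.0115) were also called by limma, each of them without any 1 of the 12 arrays as well. Hp (2.10, adjusted p = 0.0347) and Rab44 (1.14, adjusted p = 0.0306) were also called by limma, but not in every fit with 1 array left out. The Hp call was lost without any 1 of the LSK_KO or GMP_WT arrays or LSK_WT replicate 2 (adjusted p 0.0547 to 0.0835), and the Rab44 call without LSK_KO replicate 1 or 3, LSK_WT replicate 2 or 3, or any 1 GMP_WT array (adjusted p 0.0566 to 0.0832). With quantile normalization repeated, the limma adjusted p was 0.0631 for Hp and 0.0942 for Rab44, and with trend and robust options it was 0.0813 for Hp. Ms4a3 (2.29, adjusted p = 0.0536), Mpo (0.55, adjusted p = 0.106) and Elane (1.48, adjusted p = 0.324) were not called by limma.

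The same quantity is the amount by which the step between LSK and GMP was smaller in KO, so the stages are given side by side. In KO all 10 genes were higher in GMP than in LSK, with a median difference of 1.20, and all 10 were called, against 5.79% of all genes. In WT all 10 were again higher in GMP, with a median difference of 2.88, and all 10 were called, against 9.32% of all genes. Ms4a3 was 6.02-fold higher in GMP than in LSK in KO and 29.5-fold in WT, and Elane 10.1-fold in KO and 28-fold in WT. Hp was 3.93-fold higher in KO and 16.9-fold in WT, and Anxa3 5.03-fold in KO and 11.7-fold in WT. The narrowest step in KO was that of Prss57 at 1.85-fold (log2 0.89, SE 0.15), against 5.41-fold in WT (log2 2.44, SE 0.15). For Ctsg it was 2.18-fold in KO and 8.53-fold in WT, for Prtn3 2.42-fold in KO and 5.18-fold in WT, and for Mpo 1.89-fold in KO and 2.78-fold in WT. Cst7 (2.06-fold in KO, 6.35-fold in WT) and Rab44 (2.1-fold in KO, 4.62-fold in WT) complete the set. The adjusted p-values of limma lay between 5.32e-06 and 0.00878 for the 10 genes in KO, and these steps share their arrays with the KO comparisons.

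**Figure D3:**
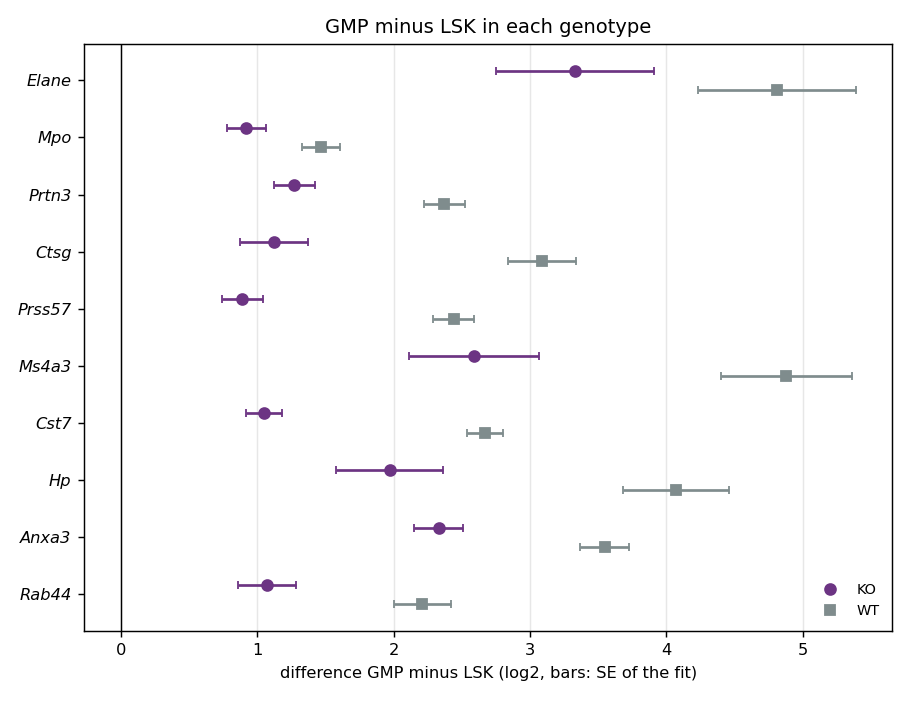
Difference GMP minus LSK (log2) of the 10 genes in KO (purple circles) and WT (grey squares), with the SE of the fit as bars. For every gene the KO value is the smaller, with medians of 1.20 in KO and 2.88 in WT.

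The order of the 4 group means was LSK_WT, LSK_KO, GMP_KO, GMP_WT from low to high for 8 of the 10 genes, with GMP_KO and GMP_WT exchanged for Cst7 and Rab44, whose GMP arrays overlapped. The LSK_KO mean lay between the LSK_WT and GMP_WT means for all 10. The neighbouring groups LSK_WT and LSK_KO overlapped for Elane, Mpo, Prss57 and Ms4a3, and LSK_KO and GMP_KO overlapped for none of the 10 genes.

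The order of the arrays within a group was shared by most genes in 3 of the 4 groups. Replicate 1 was the highest LSK_KO array for all 10 genes, the highest LSK_WT array for 9 and the highest GMP_WT array for 9. Replicate 3 was the lowest LSK_WT array for 7 genes and the lowest GMP_WT array for 9. In GMP_KO the order was less shared: replicate 1 was the highest for 6 genes and the lowest for 2, replicate 2 was the lowest for 5, and replicate 3 was the highest for 4 and the lowest for 3. The mean over the 10 genes was 10.18, 9.44 and 9.56 in the KO LSK arrays, against 9.15, 8.56 and 8.11 in the WT LSK arrays. It was 11.44, 11.31 and 11.40 in the KO GMP arrays, against 11.85, 11.76 and 11.69 in the WT GMP arrays. The 10 genes are therefore not independent observations.

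Genes outside the set with the most similar profile were searched among 1627 genes whose group means spanned at least 1, by the root mean square difference over the 12 arrays after centring each gene. For Elane the closest were 2 genes of the set, Ms4a3 (0.47) and Hp (0.68), followed by Clec5a (0.82), a myeloid lectin receptor. For Ctsg they were Cst7 (0.27) of the set, Ap3s1 (0.31), a subunit of the AP-3 adaptor that sorts cargo to lysosome-related organelles, and Ccr2 (0.33), a monocyte chemokine receptor. Ap3s1 read 11.38, 11.00 and 11.03 in KO LSK arrays, against 9.91, 9.33 and 9.35 in WT LSK arrays, a difference of 1.61 (SE 0.15; limma adjusted p = 5.11e-05), and 0.07 (SE 0.15; limma adjusted p = 0.807) in GMP. For Mpo the closest were Card9 (0.16), Csgalnact2 (0.17) and Atrn (0.17), and for Prtn3 they were Rgcc (0.19), Gsr (0.20) and Gpc1 (0.24).

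A further list held genes whose proteins process, store or inhibit the granule contents. Of these 11 genes, 3 rose and 0 fell in KO LSK cells, with a median difference of 0.25. These were Slpi, an inhibitor of elastase and cathepsin G (0.90, SE 0.15; limma adjusted p = 0.00454), Ctsc, the cathepsin that activates the granule proteases (0.64, SE 0.13; limma adjusted p = 0.0114), and Cd63, a granule membrane tetraspanin (0.55, SE 0.09; limma adjusted p = 0.00286, or 0.0583 without replicate 1 of both LSK groups). The Ctsc call was lost without LSK_KO replicate 3 or LSK_WT replicate 3, with a limma adjusted p of 0.0568 in both cases. In KO GMP cells 3 of the 11 rose and 3 fell, with a median of 0.00. Serpinb1a, a cytosolic inhibitor of the granule proteases, fell by 0.74 (SE 0.08; limma adjusted p = 5.24e-05), and Cd63 rose by 0.72 (SE 0.09; limma adjusted p = 1.26e-04). Lyz1 and Lyz2 were among the 3 that rose and are near-identical copies, so their probe sets may not be separate.

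Of 8 regulators of granule genes, Cebpa alone was called in LSK cells in the main fit. Cebpa encodes the C/EBP factor needed for the step to granulocyte progenitors. It read 9.23, 9.04 and 9.17 in KO LSK arrays, against 7.93, 7.78 and 8.06 in WT LSK arrays. The groups were far apart, with a difference of 1.23 (SE 0.15, 2.34-fold; limma adjusted p = 4.00e-04), and the KO effect was larger in LSK than in GMP by 1.12 (SE 0.21; limma adjusted p = 0.00738). Gfi1, a repressor needed for neutrophil development, differed by 0.49 in LSK (SE 0.14, limma adjusted p = 0.0656). It was called with array weights (limma adjusted p = 0.00575) and in a fit of the LSK groups alone (limma adjusted p = 0.00919). Spi1, which encodes PU.1, differed by 0.10 in LSK (SE 0.10, limma adjusted p = 0.723). In GMP cells 0 of the 8 rose and Cebpe, the C/EBP factor of later granulocyte stages, fell by 0.60 (SE 0.17; limma adjusted p = 0.0301). That call was lost without GMP_KO replicate 2 or 3 or any 1 GMP_WT array, with limma adjusted p-values of 0.0632 to 0.0962, and with quantile normalization repeated, at 0.165.

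Of 12 genes of granule trafficking and congenital neutropenia, 1 rose and 1 fell in KO LSK cells, and 0 rose and 5 fell in KO GMP cells. Rab27a, a GTPase of granule secretion, rose by 0.53 in KO LSK cells (SE 0.10; limma adjusted p = 0.00682) and fell by 0.50 in KO GMP cells (SE 0.10; limma adjusted p = 0.0039; 0.0662 with quantile normalization repeated), and its effects differed by 1.03 (SE 0.14; limma adjusted p = 0.00148). Vps45, a vesicle fusion protein whose loss causes congenital neutropenia in humans, fell by 0.43 in KO GMP cells (SE 0.09; limma adjusted p = 0.0073).

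Genes of later neutrophil stages were mostly not called. Of 21 secondary granule and maturation markers, 0 were called in KO LSK cells, with a median difference of 0.02, and in KO GMP cells 1 was called higher and 1 lower, with a median of -0.27. Their mean per array was 6.97, 8.36 and 7.25 in KO LSK cells, against 8.36, 7.21 and 6.86 in WT LSK cells, and in GMP cells it was 8.76, 7.42 and 7.33 in KO, against 8.70, 7.32 and 7.92 in WT. Replicate 1 had the highest mean for both lists in GMP_KO, LSK_WT and GMP_WT, whereas in LSK_KO replicate 2 was highest for these markers and replicate 1 for the primary granule genes.

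Markers of other cell types moved beside the set. Of 9 measured monocyte markers, 4 rose and 0 fell in KO LSK cells, with a mean per array of 7.92 to 8.13 in KO, against 6.57 to 7.22 in WT. Examples are Mpeg1 (2.55, SE 0.27; limma adjusted p = 1.61e-04) and Ctss (1.94, SE 0.27; limma adjusted p = 0.00103), both of phagocyte lysosomes. In KO GMP cells 2 of the 9 rose and 4 fell. Those that rose were again Ctss (2.61, limma adjusted p = 3.49e-05) and Mpeg1 (1.79, limma adjusted p = 6.90e-04). Irf8, a factor of monocyte commitment, fell by 1.19 (SE 0.13, limma adjusted p = 7.44e-05). F13a1 and Ccr2 also rose in KO LSK cells (2.98 and 1.80, limma adjusted p = 8.32e-04 and 0.00318). In GMP they were not called (0.21 and -0.77, limma adjusted p = 0.797 and 0.096). The monocyte mean spanned 8.99 to 9.44 in KO GMP arrays and 9.19 to 9.27 in WT GMP arrays.

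Of 19 measured macrophage markers, 7 rose and 0 fell in KO LSK cells, and 14 rose and 0 fell in KO GMP cells. Their mean was 6.76 to 7.63 in KO LSK arrays, against 5.85 to 6.03 in WT LSK arrays, and 8.04 to 8.57 in KO GMP arrays, against 6.04 to 6.18 in WT GMP arrays. Gpnmb, a lysosomal glycoprotein, was higher in KO by 6.41 in LSK and by 7.20 in GMP. Both WT means were within the range of deleted Lamtor2, so these differences may be understated. The number of the 19 with a mean at or below 5.77, the top of that range, was 4 in LSK_KO, 7 in LSK_WT, 2 in GMP_KO and 8 in GMP_WT. Cd68, a macrophage lysosomal protein, rose by 2.27 in KO LSK cells (SE 0.21; limma adjusted p = 5.25e-05).

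Of 14 measured mast cell, basophil and eosinophil markers, 4 rose and 0 fell in KO LSK cells, and 3 rose and 1 fell in KO GMP cells. Their mean was 6.75 to 7.42 in KO LSK arrays, against 6.03 to 6.38 in WT LSK arrays, and 8.06 to 8.87 in KO GMP arrays, against 7.57 to 7.90 in WT GMP arrays. Cpa3, a mast cell carboxypeptidase, rose by 2.68 in KO LSK cells (SE 0.30; limma adjusted p = 2.66e-04). Of 7 measured stem cell and LSK markers, 0 rose and 2 fell in KO LSK cells, with a mean of 8.07 to 8.37 in KO, against 8.58 to 8.70 in WT. In KO GMP cells 1 rose and 1 fell, with a mean of 6.15 to 6.52 in KO, against 6.08 to 6.30 in WT. These were Flt3, higher by 1.26 (SE 0.14, limma adjusted p = 5.13e-05), and Tek, lower by 0.38 (SE 0.11, limma adjusted p = 0.0311). In each GMP group 4 of the 7 had a mean at or below 5.77, the top of the range of deleted Lamtor2. In KO LSK cells the receptor gene Tek fell by 1.35 (SE 0.11, 95% interval of the difference -1.59 to -1.12, limma adjusted p = 2.61e-05). Its KO LSK level of 5.22 was within the range of deleted Lamtor2, so the decrease may be understated.

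Of 4 genes of the sort gates, 2 rose and 0 fell in KO LSK cells, and 2 rose and 0 fell in KO GMP cells. Cd34 was not called, at -0.14 in LSK (SE 0.20, limma adjusted p = 0.845) and -0.59 in GMP (SE 0.20, limma adjusted p = 0.0658). Ly6a, the gene of Sca1, was not measured. Fcgr3, part of the FcγR gate that defines GMP, read 8.49, 8.50 and 7.80 in KO LSK arrays, against 6.45, 5.66 and 5.61 in WT LSK arrays. The groups were far apart, with a difference of 2.36 (SE 0.23; limma adjusted p = 7.03e-05), and 0.40 (SE 0.23; limma adjusted p = 0.286) in GMP. Fcgr2b rose by 1.42 in KO LSK cells (SE 0.14; limma adjusted p = 7.03e-05) and by 0.69 in KO GMP cells (SE 0.14; limma adjusted p = 0.00381), whereas Kit differed by 0.00 in LSK (SE 0.14; limma adjusted p = 0.999). In GMP cells Kit was called higher in KO, by 0.43 (SE 0.14; limma adjusted p = 0.0485), but this call was lost without GMP_KO replicate 2 (0.29) or 3 or any 1 of the GMP_WT arrays, with limma adjusted p-values of 0.086 to 0.148. Of 9 measured erythroid and megakaryocyte markers, 0 rose and 3 fell in KO LSK cells, and 1 rose and 3 fell in KO GMP cells. Of 9 measured B, T and NK cell markers, 0 were called in KO LSK cells and 2 fell in KO GMP cells. The part of these shifts in the rise of the primary granule genes was not tested.

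**Figure D4:**
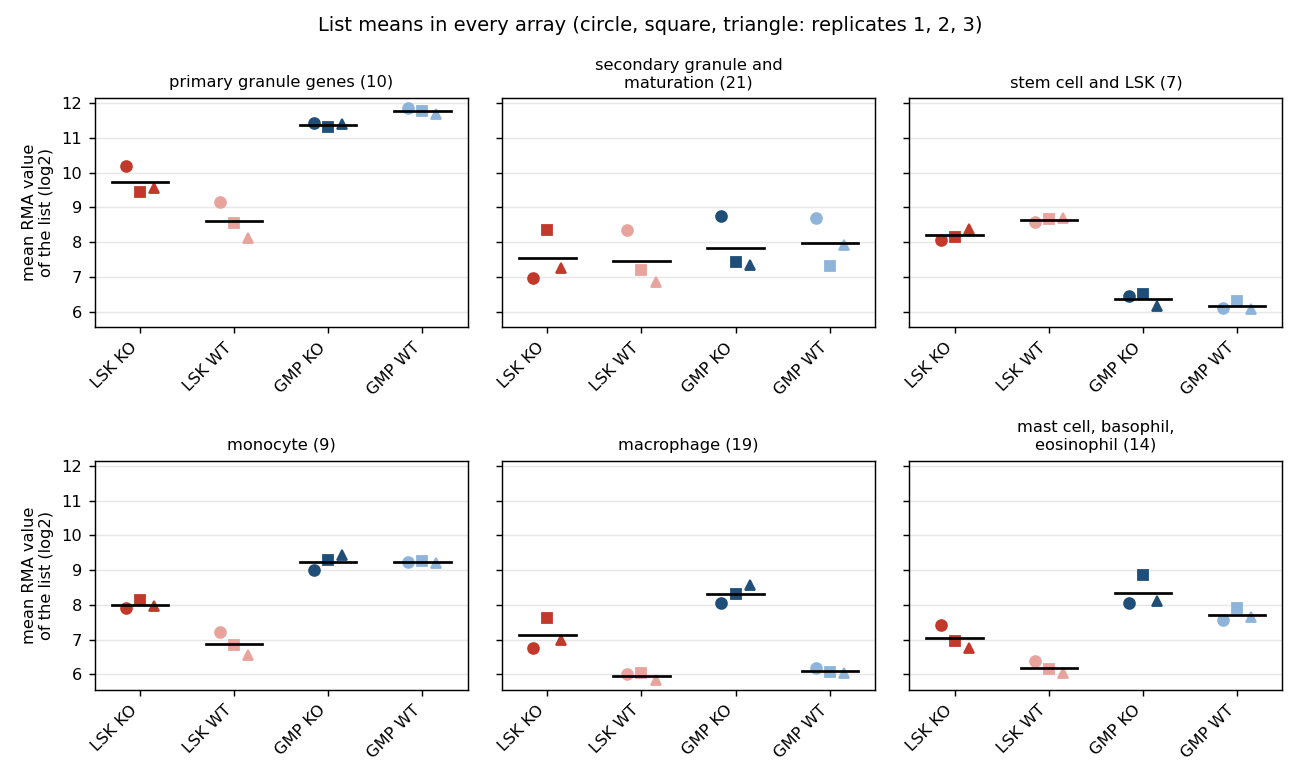
Mean RMA value (log2) of 6 gene lists in every array, with the number of genes in brackets and KO left of WT in LSK and then in GMP; the black line is the group mean. In LSK the primary granule, monocyte, macrophage and mast cell lists have higher KO than WT means and the stem cell list a lower one, while the secondary granule list overlaps in all 4 groups.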

How the data were processed

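Per the labels' protocols, total RNA of sorted cells (RNeasy Micro Kit, Qiagen) was amplified with NuGEN's WT-Ovation Pico and labelled with biotin through Ambion's WT Expression Kit. The deposited values are log2 intensities made by the authors with RMA (background correction, quantile normalization and summary of the probes of a set), per the submitters' processing notes; the log base was inferred from the value range, and neither software version nor genome build is given in the sources used here. Of 34760 probe sets, 21640 had a single gene symbol in the platform annotation, 1321 had several and 11799 were unnamed here. Symbols were updated by gene ID from a RefSeq table of GRCm38.p6 (21553 matched), and where a gene had several probe sets (954 genes) the brightest over the 12 arrays was kept, which left 19937 genes.

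All 4 groups were fitted together with limma 3.58.1 in R 4.3.3 (lmFit and eBayes, no trend, two-sided, 8 residual and 5.16 prior degrees of freedom, Benjamini-Hochberg over 19937 genes, threshold 0.05). The code was tested on simulated data. Intervals are at 95%. The number of arrays limits the precision.

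The 10 genes and the 11 lists (131 entries, 123 measured) were chosen with earlier results of these data known. Named were all 10 genes, Lamtor2, up to 4 called genes per list by smallest p, and the 3 most similar genes each for Elane, Mpo, Prtn3 and Ctsg. Gfi1, Spi1, Kit, Cd34 and the GMP values of Fcgr3, F13a1 and Ccr2 were named after their values were seen. Alternatives were repeated quantile normalization, centring, leaving out the dimmest 30% of genes, the mean of all probe sets, trend and robust options, array weights, fits of only the groups compared, replicate blocks and each array left out. Leaving out the number 1 arrays, of LSK or of all groups, was added after seeing the data.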

Additional observations from a re-analysis of the deposited data

Results flagged for a closer look

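The KO effect differed between LSK and GMP cells, as LSK effect minus GMP effect on the log2 scale by limma's interaction test, for 7 of the 10 genes. The values were 1.10 for Prtn3, 1.97 for Ctsg, 1.55 for Prss57, 1.62 for Cst7, 2.10 for Hp, 1.22 for Anxa3 and 1.14 for Rab44, with limma adjusted p-values of 6.25e-04 (Cst7) to 0.0347 (Hp). Of these 7, Cst7, Ctsg, Anxa3 and Rab44 were called in LSK, Prss57 and Prtn3 were called in GMP, and Hp was called in neither.

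Among the other genes described above the same test was passed by Ap3s1 (1.53), Ccr2 (2.56), Cebpa (1.12), Clec5a (1.49), Ctsc (0.63), F13a1 (2.77), Fcgr2b (0.73), Fcgr3 (1.96), Irf8 (1.49), Rab27a (1.03), Rgcc (0.98), Serpinb1a (0.71), Slpi (1.36), Tek (-0.97) and Flt3 (-1.08), with limma adjusted p-values of 0.00143 (Irf8) to 0.0475 (Ctsc). Further list genes that passed it with negative values included Lgmn (-2.39), Vwf (-1.03), Maf (-0.86), Hlf (-0.83) and Hemgn (-0.59). Those with positive values included Hdc (2.32), Nkg7 (0.85), G6pc3 (0.77), Cx3cr1 (0.76), Canx (0.64) and Calr (0.63). Tek averaged 5.22 in KO and 6.58 in WT LSK cells, and 4.69 in KO and 5.07 in WT GMP cells. All of these except the WT LSK level lay in or below the range that Lamtor2 had in KO arrays. The size of any decrease of Tek in GMP, and with it the negative value of Tek, is therefore uncertain.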

How the results depend on the processing

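The number of the 10 genes called in KO against WT was 5 in LSK and 4 to 7 under the other settings that kept all arrays; with 1 array left out it was 3 to 6, with 3 (Cst7, Ctsg and Rab44) without LSK_KO replicate 1, LSK_WT replicate 2 or LSK_WT replicate 3. In GMP it was 2 and at most 3 in a fit of the GMP groups alone; with 1 array left out it was 1 to 3, with 1 (Prss57) without GMP_KO replicate 2, GMP_WT replicate 1 or GMP_WT replicate 2. The difference between the LSK and GMP effects was called for 7 genes, for 5 with quantile normalization repeated and for 8 when arrays were centred; with 1 array left out it was called for 5 to 8. GMP against LSK was called for 10 genes in each genotype under all alternatives run. The sign of some values near 0 turned, and that of Kit in LSK, at 0.00, was not fixed either. Cst7 in GMP was -0.02 (limma adjusted p = 0.953) with centred arrays, against 0.05, and Gpc1 in LSK was -0.00 to 0.26 with 1 array left out, against 0.13. Leaving out the number 1 arrays of LSK gave 6 calls in LSK, and leaving out all number 1 arrays 6 in LSK and 3 in GMP.

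With the replicate number as a replicate block the counts were 6 in LSK (Hp added, limma adjusted p = 0.0475), 2 in GMP, 8 for the difference (Ms4a3 added, limma adjusted p = 0.0201) and 10 for each step from LSK to GMP. The labels do not say that a number marks a shared mouse or day, and deviations from the group means of same-numbered arrays correlated between -0.179 and 0.285, so these numbers were not taken as pairs; for LSK KO and WT each array correlated best with its own number, but not for the GMP arrays. The SD within an LSK group reached 1.47 for Elane, and the number of arrays limits what can be called for such genes. The cause of these dependences was not tested.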
